A study of Mus musculus with 12 samples.

Results

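The genes described here encode enzymes that make or interconvert nonessential amino acids: *Asns* for asparagine, *Aldh18a1* and *Pycr1* for proline, *Cbs* and *Cth* for cysteine by transsulfuration, *Bcat1*, *Got1* and *Gpt2* for the transfer of amino groups, and *Glul* for glutamine. The 9 genes were taken by name from a count matrix of 24453 genes and followed across 4 lines of mouse embryonic fibroblasts (MEFs). Of the 9, 8 passed the filter on low counts that 14026 genes passed, and *Cbs* did not.

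All 4 lines carried the *Pnpt1* neo-flox/neo-flox genotype on the C57BL6/J strain, came from the line TM6 and grew with uridine (50 µg/mL) in the medium. *Pnpt1* encodes PNPase, an RNA-processing enzyme of mitochondria. TM6 MEFs were untreated and, as the study describes them, immortalized with SV-40 large T antigen. The rho0 MEFs, which lack mtDNA, are a single cell colony of TM6 cells cultured for 3 weeks with ditercalinium dichloride dihydrochloride at 750 ng/mL, and PKO-1 and PKO-6 are 2 single-cell clones of TM6 cells that received an adenovirus carrying Cre recombinase (Adenoviral-Cre). The study reports that the PKO clones had lost mtDNA too, did not respire and had no detectable PNPase protein. Each line gave 3 biological replicates (12 libraries), which are cultures of 1 line or clone. A p-value between lines thus measures the spread between cultures and not between independently derived lines. Only in the fit that joins the clones, given further on, does the gap between these 2 clones count as spread as well.

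The carbon of most of these products comes from the tricarboxylic acid cycle, and their nitrogen from glutamate or glutamine. Aspartate is made from oxaloacetate by transamination and is converted to asparagine, and proline is made from glutamate in mitochondria by steps that consume NADPH or NADH. Transsulfuration passes the sulfur of homocysteine to serine through cystathionine, which is then cleaved to cysteine. Several of these genes are known targets of ATF4, a transcription factor that is translated when amino acids are short or mitochondria are impaired, and that binds C/EBP-ATF response elements.

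In GRCm38, the build of the deposited values, *Asns* lies at chr6:7675171-7693182 (minus strand, 12 exons), *Aldh18a1* at chr19:40550257-40588463 (minus, 19 exons), *Pycr1* at chr11:120635712-120643670 (minus, 8 exons) and *Cth* at chr3:157894248-157925063 (minus, 12 exons). *Cbs* lies at chr17:31612623-31637205 (minus, 16 exons), *Bcat1* at chr6:144993835-145076157 (minus, 11 exons), *Got1* at chr19:43499753-43524605 (minus, 9 exons), *Gpt2* at chr8:85492617-85527558 (plus, 12 exons) and *Glul* at chr1:153899929-153909723 (plus, 7 exons). *Glul* overlaps the microRNA gene *Mir8114* on the same strand, and the other 8 overlapped no annotated gene.

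The core of the C/EBP-ATF response element was searched as TGATGNAA on both strands of promoter windows that run from 250 bases before to 50 bases after a transcription start, as given by RefSeq for GRCm38.p6. Windows were listed for 8 of the 9 genes, *Cth* being the other one. The core stood in the windows of 3 of these 8 genes, *Asns*, *Pycr1* and *Got1*, in 3.97% of all 32851 windows of 300 bases and in those of 4.51% of all 27025 genes. These 3 windows are shown because the genes that hold the core differ among themselves in how they changed, as given further on. Each line gives the 150 bases before the start in the direction of transcription, with the matched core in capitals.

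*Asns* (chr6:7693210-7693359, minus strand): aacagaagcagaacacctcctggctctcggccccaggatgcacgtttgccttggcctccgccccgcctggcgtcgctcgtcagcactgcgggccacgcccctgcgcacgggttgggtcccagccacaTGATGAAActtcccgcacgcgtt

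*Pycr1* (chr11:120643749-120643898, minus strand): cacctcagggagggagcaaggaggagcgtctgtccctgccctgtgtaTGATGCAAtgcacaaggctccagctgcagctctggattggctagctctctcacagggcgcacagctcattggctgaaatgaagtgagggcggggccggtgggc

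*Got1* (chr19:43524606-43524755, minus strand): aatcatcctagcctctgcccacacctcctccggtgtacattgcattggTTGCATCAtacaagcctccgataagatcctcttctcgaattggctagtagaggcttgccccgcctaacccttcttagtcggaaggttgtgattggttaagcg

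Counted upstream from the RefSeq start, the first base of the core stands at 23 in *Asns*, at 103 in *Pycr1* and at 102 in *Got1*. In *Got1* the core is on the strand opposite to transcription, so it reads TTGCATCA in the line above. The deposited annotation begins the transcripts of *Asns* and *Pycr1* further downstream than the RefSeq table does. The E-box CACGTG stood in the windows of *Aldh18a1* and *Cbs*, 2 of the 8 listed genes, and in 7.15% of all windows (8.09% of genes). Neither motif stood in those of *Bcat1*, *Gpt2* and *Glul*. A match describes these letters only and is not a measurement of binding.

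Libraries held 47164860 to 67991378 estimated counts (median 55405647), of which 12.2% to 19.6% fell on *Rn45s*, the ribosomal RNA precursor. Normalized counts below are estimated counts divided by the library's TMM-scaled size relative to the mean library. *Pnpt1*, the gene targeted by Cre, had 3131 ± 262 normalized counts (mean ± SD, n = 3, as in all values of this form) in TM6, 5271 ± 230 in rho0, 1240 ± 44.3 in PKO-1 and 1944 ± 250 in PKO-6, and the count covers the whole gene, the parts outside the excised stretch included. Of 12 fibroblast markers, 10 were above 1 TPM (a level scaled by transcript length and library) in every TM6 library, 9 in rho0, 11 in PKO-1 and 10 in PKO-6. *Thy1* was below 1 TPM in every line, as were *Dcn* in TM6 and rho0, *Pdgfra* in rho0 and *Fbn1* in PKO-6. Together the 12 markers held 6779 to 6967 TPM in TM6, 6845 to 7019 in PKO-1, 3817 to 3918 in rho0 and 3046 to 3367 in PKO-6. Of 5 endothelial markers none was above 1 TPM in every library of a line, and the 6 epithelial, 6 blood cell and 6 neural markers had 1, 1 and 3 above that level in each line. The epithelial marker above that level was *Krt18* in TM6, rho0 and PKO-1 and *Epcam* in PKO-6. The epithelial markers together held 6.11 to 6.55 TPM in TM6, 10.2 to 11.7 in rho0, 19.2 to 20.1 in PKO-1 and 1.67 to 2.01 in PKO-6. For the neural markers the sums were 22.3 to 23.6, 23.5 to 24.6, 36.4 to 39.0 and 21.1 to 25.5 in the same order. Blood cell markers held 2.33 to 6.05 TPM over all lines. The lines with the lower fibroblast marker sums, rho0 and PKO-6, are also those with the higher enzyme levels below, and the part of this in the results was not tested. In bulk RNA a change in the RNA of each cell and a change in the share of cells that hold it cannot be told apart.

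Taken as a group, the 9 genes held 304 to 308 TPM in the TM6 libraries, 1010 to 1035 in rho0, 478 to 484 in PKO-1 and 886 to 917 in PKO-6. No line overlapped another. *Asns* was the most abundant of the 9 in every line, with 112 TPM in TM6, 344 in rho0, 150 in PKO-1 and 308 in PKO-6. *Cth* changed its rank most, from the sixth place in TM6 (12.4 TPM) to the fourth in PKO-1 (56.0 TPM) and the second in rho0 (217 TPM) and PKO-6 (187 TPM).

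**Figure D1:**
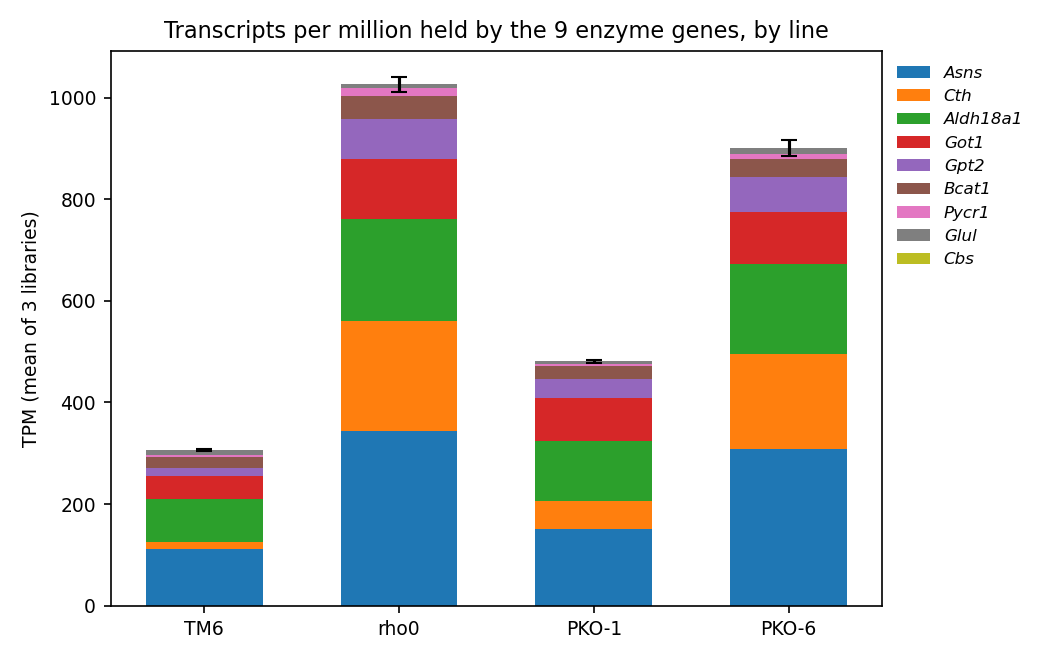
Stacked bars of the mean TPM of the 9 enzyme genes in each line (n = 3 libraries), with the SD of the sum as error bars. The sum is lowest in TM6 (mean 306 TPM), then PKO-1 (481), PKO-6 (901) and rho0 (1026), and *Asns*, *Cth* and *Aldh18a1* hold most of it in rho0 and PKO-6.

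Pairs of lines were compared by the quasi-likelihood test of edgeR in 1 fit of the 12 libraries as 4 groups, with p adjusted over the 14026 genes by the Benjamini-Hochberg method. A gene was called where adjusted p was below 0.01 and the absolute log2 fold change above 0.5, the thresholds of the study, and "rose" and "fell" are used of called genes only. Against TM6, 7 of the 8 tested enzymes rose in rho0 and 0 fell, where 20.7% of all tested genes were called higher and 21.4% lower. Against the same TM6 libraries, 4 rose and 1 fell in PKO-1, where the shares of all genes were 16.4% and 17.9%. In PKO-6 all 8 tested enzymes rose, against 21.9% of all genes (19.4% lower). The median log2 fold change of the 8 was 1.54 in rho0, 0.51 in PKO-1 and 1.23 in PKO-6, and that of all tested genes was 0.02, 0.00 and 0.01. The libraries of a line did not overlap those of TM6 in 8 of the 8 in rho0 and in PKO-6 and in 7 of the 8 in PKO-1, where 72.8%, 71.9% and 71.8% of all tested genes did not overlap. These 3 comparisons share the TM6 libraries and are not independent of one another. *Aldh18a1*, *Cth*, *Got1* and *Gpt2* rose in all 3 lines, 4 of the 8, where 8.28% of all tested genes were called higher in all 3.

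**Figure D2:**
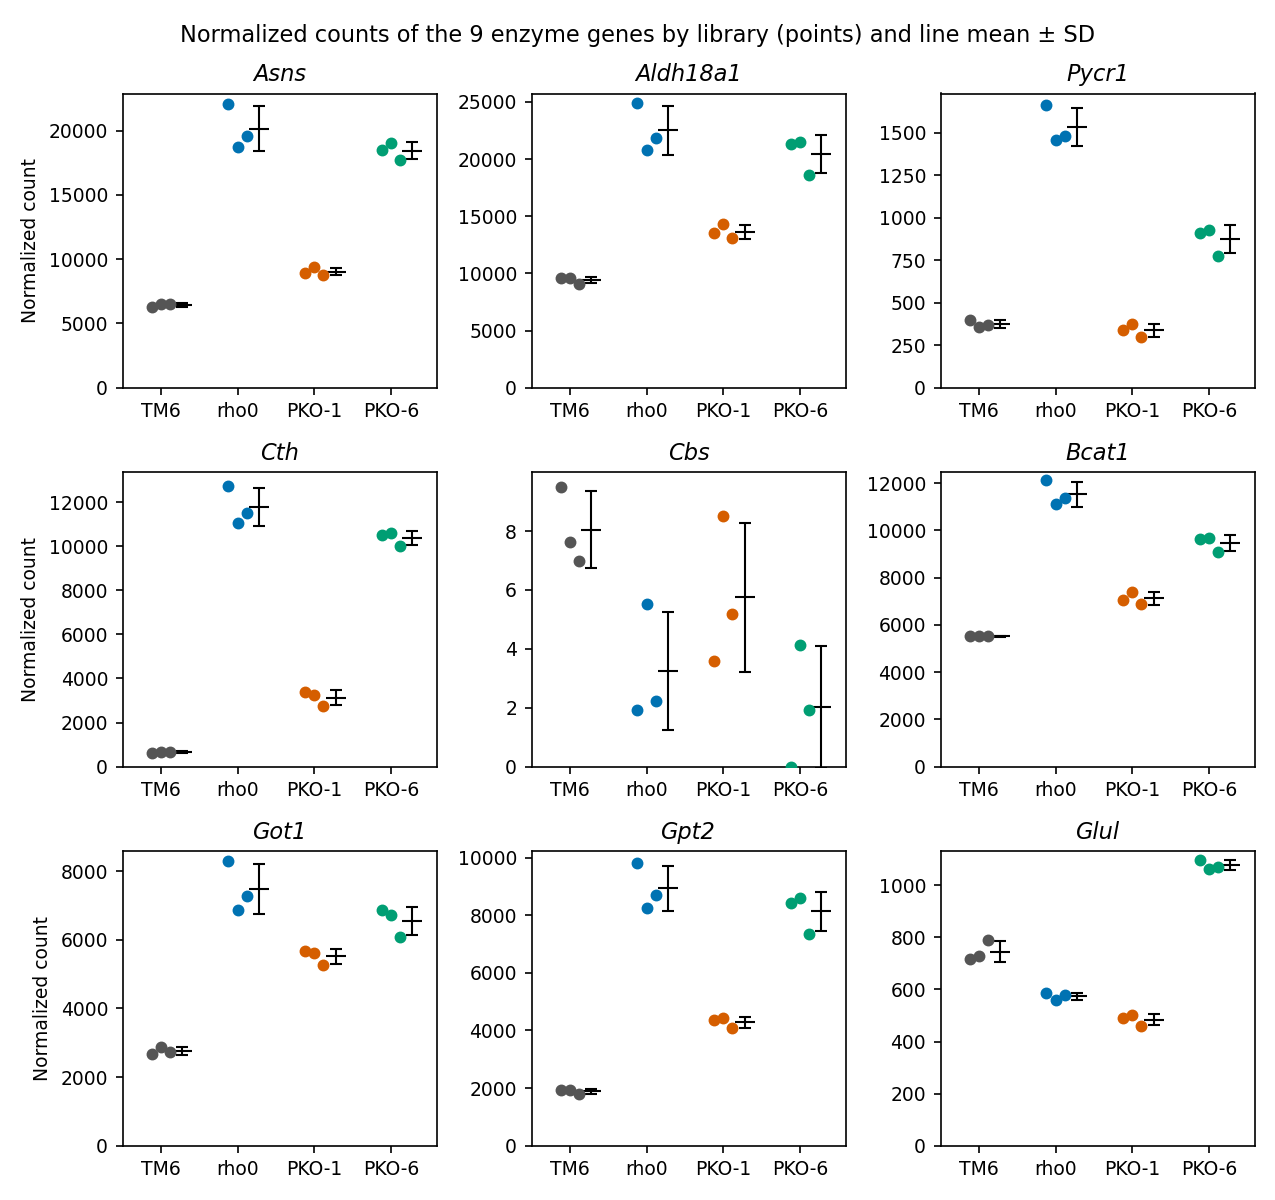
Normalized counts of the 9 enzyme genes (linear axes from 0, a scale of its own in each panel) in the 12 libraries, as points by line, with the line mean ± SD (n = 3) as a black bar. In 6 panels the lines order rho0, PKO-6, PKO-1 and TM6 from high to low, 1 of the 3 PKO-1 libraries of *Pycr1* sits within the range of TM6 and the others under it, and *Cbs* stays under 10 counts.

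*Asns* encodes asparagine synthetase, which makes asparagine from aspartate with the amide nitrogen of glutamine. Its normalized counts were 6298, 6546 and 6526 in the TM6 libraries and 22111, 18747 and 19624 in rho0. They were 8963, 9361 and 8794 in PKO-1 and 18506, 19047 and 17738 in PKO-6. Every library of the 3 derived lines was above every TM6 library, and the ranges of rho0 and PKO-6 overlapped. *Asns* rose 3.12-fold in rho0 (log2 fold change 1.64, SE 0.064, adjusted p = 5.64e-11, edgeR) and 2.85-fold in PKO-6 (1.51, SE 0.063, adjusted p = 9.12e-11). In PKO-1 its log2 fold change was 0.49 (SE 0.062, adjusted p = 1.18e-05, edgeR), just under the threshold of 0.5, so it was not called there. Without PKO-1 replicate 3 that value was 0.51 and the gene was called.

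The other genes of asparagine and aspartate form a list of 5, all tested. In rho0 and in PKO-1, 1 was called higher and 2 lower, and in PKO-6 2 were higher and 2 lower. The shares of all tested genes called higher and lower were 20.7% and 21.4% in rho0, 16.4% and 17.9% in PKO-1 and 21.9% and 19.4% in PKO-6, and nothing is read from counts over 5 genes. The 2 lower in PKO-1 became 1 without TM6 replicate 3, PKO-1 replicate 2 or PKO-1 replicate 3. *Asrgl1*, an asparaginase, rose in all 3 lines, with log2 fold changes of 2.37 in rho0, 0.88 in PKO-1 and 1.68 in PKO-6. *Ass1*, argininosuccinate synthase, which consumes aspartate to make the precursor of arginine, fell in all 3 (-3.47, -4.75 and -2.26). Its normalized counts were 1766 ± 220 in TM6, 158 ± 103 in rho0, 65.0 ± 19.3 in PKO-1 and 370 ± 33.9 in PKO-6. *Got2*, the mitochondrial aspartate aminotransferase, fell in PKO-6 (-0.55), where the median over its chromosome was -0.43, and was not called in rho0 (-0.40) or PKO-1 (-0.17). *Aspg*, an asparaginase of low counts that is named here after its values were seen, had a mean of 6.0 normalized counts in TM6 and 42.4 in PKO-6 and was listed at 0 in all rho0 libraries.

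*Aldh18a1* encodes the enzyme that carries out the first steps from glutamate towards proline and ornithine. Its normalized counts were 9606, 9600 and 9104 in TM6, 24951, 20810 and 21833 in rho0, 13545, 14299 and 13105 in PKO-1 and 21311, 21468 and 18573 in PKO-6. TM6 and PKO-1 stood apart from each other and from the other 2 lines, while rho0 and PKO-6 overlapped. *Aldh18a1* rose 2.39-fold in rho0 (log2 fold change 1.26, SE 0.076, adjusted p = 4.94e-09, edgeR), 1.45-fold in PKO-1 (0.53, SE 0.076, adjusted p = 2.97e-05) and 2.17-fold in PKO-6 (1.12, SE 0.076, adjusted p = 1.37e-08). The PKO-1 value is close to the threshold and was 0.50, no longer called, without PKO-1 replicate 2.

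Of 2 annotated *Aldh18a1* transcripts, the longer differs by 6 bases at the end of exon 7 of 19 (chr19:40574211-40574216, minus strand). The 2 transcripts are shown around that place because the shares given next rest on reads from that place, and the 6 added bases are in capitals.

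Long form: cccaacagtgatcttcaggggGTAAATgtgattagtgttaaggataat

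Short form: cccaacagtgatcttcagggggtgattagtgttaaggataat

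The long form took 86.3% to 89.6% of the estimated counts of *Aldh18a1* over the 12 libraries and the short form 10.4% to 13.7%. The gene's level more than doubled in rho0 and PKO-6, while these shares stayed in that range. Reads that do not cross this place carry no information on the form, so the shares rest on the authors' model of the reads.

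*Pycr1* encodes a mitochondrial pyrroline-5-carboxylate reductase, which carries out the last step to proline. It had 397, 355 and 371 normalized counts in the TM6 libraries, 1663, 1457 and 1480 in rho0, 338, 377 and 299 in PKO-1 and 913, 928 and 778 in PKO-6. One PKO-1 library lay within the range of TM6 and the other two under it, and rho0 and PKO-6 were each above all of them without overlap. *Pycr1* rose 4.09-fold in rho0 (log2 fold change 2.03, SE 0.099, adjusted p = 5.58e-10, edgeR) and 2.33-fold in PKO-6 (1.22, SE 0.099, adjusted p = 8.20e-08). In PKO-1 the value was -0.15 (SE 0.103, adjusted p = 0.222, edgeR) and was not called. Among the 8 tested enzymes it was the only one besides *Glul* in which PKO-6 and rho0 differed by a call, being lower in PKO-6 by 0.81 on the log2 scale (SE 0.094, adjusted p = 8.55e-06, edgeR).

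The 9 other genes of proline and ornithine were all tested, and 2 were higher and 2 lower in rho0, 1 and 2 in PKO-1, and 3 and 2 in PKO-6. Of all tested genes, 20.7% were called higher and 21.4% lower in rho0, 16.4% and 17.9% in PKO-1, and 21.9% and 19.4% in PKO-6. Nothing is read from the counts over this list. *Prodh*, proline dehydrogenase, which starts the breakdown of proline, rose in all 3 lines, by log2 fold changes of 1.47 in rho0, 0.98 in PKO-1 and 1.98 in PKO-6. *Pycrl*, a cytosolic relative of *Pycr1*, fell in all 3 (-0.81, -0.73 and -0.59). Its call in rho0 was lost when the median over its chromosome (-0.38) was taken out, as was its call in PKO-6 without PKO-6 replicate 3 (log2 fold change -0.47). *Odc1*, ornithine decarboxylase, rose in rho0 (0.80) and PKO-6 (0.56), on a chromosome whose medians were 0.55 and 0.53, and its PKO-6 call was lost without TM6 replicate 1 (0.49) or PKO-6 replicate 2 (0.47). *Arg1*, an arginase, fell in all 3 lines from a mean of 24.3 normalized counts in TM6 to 5.69 in rho0, 2.17 in PKO-1 and 6.20 in PKO-6, and its PKO-6 call was lost without TM6 replicate 3 (log2 fold change -1.69) or PKO-6 replicate 3 (-1.73). *Arg2*, named after its values were seen, rose in PKO-6 from 14.3 to 93.8 normalized counts.

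*Cth* encodes cystathionine gamma-lyase, which cleaves cystathionine to cysteine, and it had the largest change of the 8 tested enzymes in each of the 3 lines. Its normalized counts were 629, 683 and 678 in TM6 and 12738, 11069 and 11509 in rho0. They were 3391, 3243 and 2763 in PKO-1 and 10510, 10619 and 9990 in PKO-6. The 4 lines did not overlap, and the lowest PKO-1 library was above the highest TM6 library by several times the spread within either line. *Cth* rose 17.7-fold in rho0 (log2 fold change 4.15, SE 0.086, adjusted p = 2.11e-13, edgeR), 4.72-fold in PKO-1 (2.24, SE 0.082, adjusted p = 4.05e-11) and 15.6-fold in PKO-6 (3.97, SE 0.086, adjusted p = 2.03e-13). The rho0 and PKO-6 libraries differed by 0.18 on the log2 scale (SE 0.074, adjusted p = 0.0499, edgeR), which was not called.

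*Cbs* encodes cystathionine beta-synthase, the step before *Cth*. It had estimated counts of 11, 8 and 7 in TM6, 2, 5 and 2 in rho0, 3, 8 and 5 in PKO-1 and 0, 4 and 2 in PKO-6, out of library totals of 47164860 or more. At these counts *Cbs* did not pass the filter, no fold change is given, and a difference between lines was not detectable at this depth. Without the filter it was called in 0 of the 7 comparisons, and its lowest adjusted p was 0.0187 (PKO-6 against TM6, edgeR). The transcripts of the enzymes before and after cystathionine thus stood far apart in level in every line, *Cbs* at 0.03 to 0.11 TPM and *Cth* at 12.4 to 217 TPM. Protein was not measured.

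Of the 18 other genes of the methionine cycle, cysteine, sulfide and glutathione, 16 were tested. In rho0 3 were higher and 5 lower, in PKO-1 1 and 4, and in PKO-6 2 and 4. Over all tested genes the shares were 20.7% and 21.4% in rho0, 16.4% and 17.9% in PKO-1, and 21.9% and 19.4% in PKO-6. These counts are not read as a result about the list. *Gclm*, the modifier subunit of the enzyme that joins glutamate to cysteine, fell in all 3 lines, with log2 fold changes of -1.14 in rho0, -1.23 in PKO-1 and -1.38 in PKO-6. *Gss*, glutathione synthetase, the next step, fell too (-0.90, -0.76 and -0.79). *Mtr*, methionine synthase, which competes with transsulfuration for homocysteine, rose in rho0 (1.31) and PKO-6 (0.76) and had a value of -0.27 in PKO-1, and *Mtrr*, which keeps it active, had 0.83, 0.74 and -0.25 in the same order of lines. *Tst*, a sulfurtransferase of sulfide breakdown, fell in rho0 (-0.55) and PKO-1 (-0.99), and its rho0 call was lost without TM6 replicate 1 (-0.50), TM6 replicate 3 (-0.54), rho0 replicate 2 (-0.52) or rho0 replicate 3 (-0.51). The remaining called genes, named after their values were seen, were *Mat2a* (0.51), *Ahcyl1* (-0.57) and *Mpst* (-0.61) in rho0, *Cdo1* (-1.03) and *Sqrdl* (0.64) in PKO-1 and *Ahcyl1* (-0.60) and *Cdo1* (-3.53) in PKO-6.

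*Got1* encodes the cytosolic aspartate aminotransferase and *Gpt2* the mitochondrial alanine aminotransferase, which passes the amino group of glutamate to pyruvate. *Got1* had 2671, 2874 and 2737 normalized counts in the TM6 libraries, 8296, 6878 and 7273 in rho0, 5669, 5623 and 5276 in PKO-1 and 6863, 6727 and 6099 in PKO-6. Every derived library was above all TM6 libraries, and in PKO-1 *Got1* came nearest to its rho0 level among the 7 enzymes that rose in rho0. It rose 2.71-fold in rho0 (log2 fold change 1.44, SE 0.072, adjusted p = 6.74e-10, edgeR), 2.00-fold in PKO-1 (1.00, SE 0.071, adjusted p = 3.43e-08) and 2.38-fold in PKO-6 (1.25, SE 0.071, adjusted p = 2.19e-09).

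*Gpt2* had 1934, 1932 and 1792 normalized counts in the TM6 libraries, 9810, 8259 and 8713 in rho0, 4347, 4448 and 4076 in PKO-1 and 8437, 8588 and 7361 in PKO-6. TM6 was lowest and PKO-1 lay between TM6 and the other 2 lines, which overlapped. *Gpt2* rose 4.73-fold in rho0 (log2 fold change 2.24, SE 0.078, adjusted p = 1.93e-11, edgeR), 2.27-fold in PKO-1 (1.19, SE 0.076, adjusted p = 1.16e-08) and 4.31-fold in PKO-6 (2.11, SE 0.077, adjusted p = 2.34e-11). It rose in each line although the median of its chromosome was below 0 (-0.18 in rho0, -0.11 in PKO-1 and -0.43 in PKO-6).

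*Bcat1* encodes the cytosolic aminotransferase of branched-chain amino acids. It had 5511, 5514 and 5541 normalized counts in the TM6 libraries, 12115, 11099 and 11374 in rho0, 7067, 7411 and 6892 in PKO-1 and 9622, 9673 and 9090 in PKO-6. The 4 lines did not overlap. *Bcat1* rose 2.09-fold in rho0 (log2 fold change 1.06, SE 0.051, adjusted p = 4.48e-10, edgeR) and 1.71-fold in PKO-6 (0.78, SE 0.051, adjusted p = 8.48e-09). In PKO-1 the value was 0.37 (SE 0.051, adjusted p = 2.22e-05, edgeR), under the fold threshold. One of its 2 transcripts took 99.5% to 100% of the gene's counts in every library.

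All 15 other genes of branched-chain amino acid degradation were tested, and 4 were higher and 2 lower in rho0, 3 and 2 in PKO-1 (5 higher without TM6 replicate 3), and 4 and 2 in PKO-6. Among all tested genes 20.7% were higher and 21.4% lower in rho0, 16.4% and 17.9% in PKO-1, and 21.9% and 19.4% in PKO-6. The counts over the list are given as a description. *Aldh6a1*, which acts late in valine breakdown, rose in all 3 lines, by log2 fold changes of 1.14, 1.497 and 1.11 in rho0, PKO-1 and PKO-6. *Dld*, a subunit shared by several dehydrogenase complexes, rose by 0.79, 0.57 and 0.61. Both lie on a chromosome whose median was 0.53 to 0.56, and with that median taken out *Dld* was called in none of the 3 lines (0.28, 0.02 and 0.07), and without TM6 replicate 1 it was not called in PKO-1 (0.46) or PKO-6 (0.49). *Mccc2*, a subunit of the carboxylase of leucine breakdown, fell in all 3 (-0.74, -0.56 and -1.63). *Mccc1*, the other subunit, rose in rho0 (0.70) and PKO-6 (0.96), and in PKO-1 (0.49) it was called only without TM6 replicate 2 or PKO-1 replicate 1 (0.50 each) among the libraries left out. *Ivd*, an earlier leucine enzyme, fell in rho0 (-0.58) and PKO-1 (-2.09) and had 0.02 in PKO-6. *Bckdhb*, of the branched-chain keto acid dehydrogenase, rose in rho0 (0.67), fell in PKO-6 (-0.51) and was not called in PKO-1 (-0.35), and its PKO-6 call was lost without PKO-6 replicate 2 (-0.47). *Bckdha* in PKO-1 (0.60) and *Ppm1k* in PKO-6 (0.65), named after their values were seen, were the remaining called genes.

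*Glul* encodes glutamine synthetase, which makes glutamine from glutamate and ammonia, and it went apart from the other 7 tested enzymes. It had 718, 729 and 791 normalized counts in the TM6 libraries, 585, 560 and 578 in rho0, 490, 502 and 459 in PKO-1 and 1098, 1062 and 1072 in PKO-6. The 4 lines did not overlap, and PKO-1 and PKO-6 lay on opposite sides of TM6. *Glul* fell 1.54-fold in PKO-1 (log2 fold change -0.62, SE 0.067, adjusted p = 2.15e-06, edgeR) and rose 1.45-fold in PKO-6 (0.53, SE 0.065, adjusted p = 5.86e-06). In rho0 the value was -0.38 (SE 0.067, adjusted p = 0.00018, edgeR), under the fold threshold. The PKO-6 call lay near the threshold and was lost without TM6 replicate 1 (0.47), without PKO-6 replicate 1 (0.49) and without any 1 of the 3 rho0 libraries (0.50 each), and the median of its chromosome was 0.21 in PKO-6.

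Of 9 other genes of glutamate, glutamine and alanine, 7 were tested. In rho0 1 was higher and 2 lower, in PKO-1 2 were lower, and in PKO-6 2 were higher and 1 lower. The shares of all tested genes, higher and lower, were 20.7% and 21.4% in rho0, 16.4% and 17.9% in PKO-1, and 21.9% and 19.4% in PKO-6. Nothing is read from counts over so few genes. The 2 higher in PKO-6 became 1 with a replicate block and without TM6 replicate 2 or 3, rho0 replicate 3 or any 1 PKO-6 library. *Gpt*, the cytosolic counterpart of *Gpt2*, fell in rho0 (-1.09) and PKO-1 (-0.74) and had -0.35 in PKO-6, where *Gpt2* rose. Its level was 6.17 TPM in TM6 and 2.85 TPM in rho0, against 16.7 and 77.8 TPM for *Gpt2*. *Gls2*, a glutaminase, rose in rho0 (0.58) and PKO-6 (0.55), and its PKO-6 call was lost without PKO-6 replicate 2 (0.44). *Gfpt1*, which uses glutamine to start hexosamine synthesis, fell in PKO-6 (-0.58) and had 0.08 in rho0 and 0.31 in PKO-1. *Gfpt2*, named after its values were seen, had 14.8 ± 4.4 and 35.6 ± 10.4 normalized counts in TM6 and PKO-6 and was listed at 0 in all rho0 and PKO-1 libraries.

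**Figure D3:**
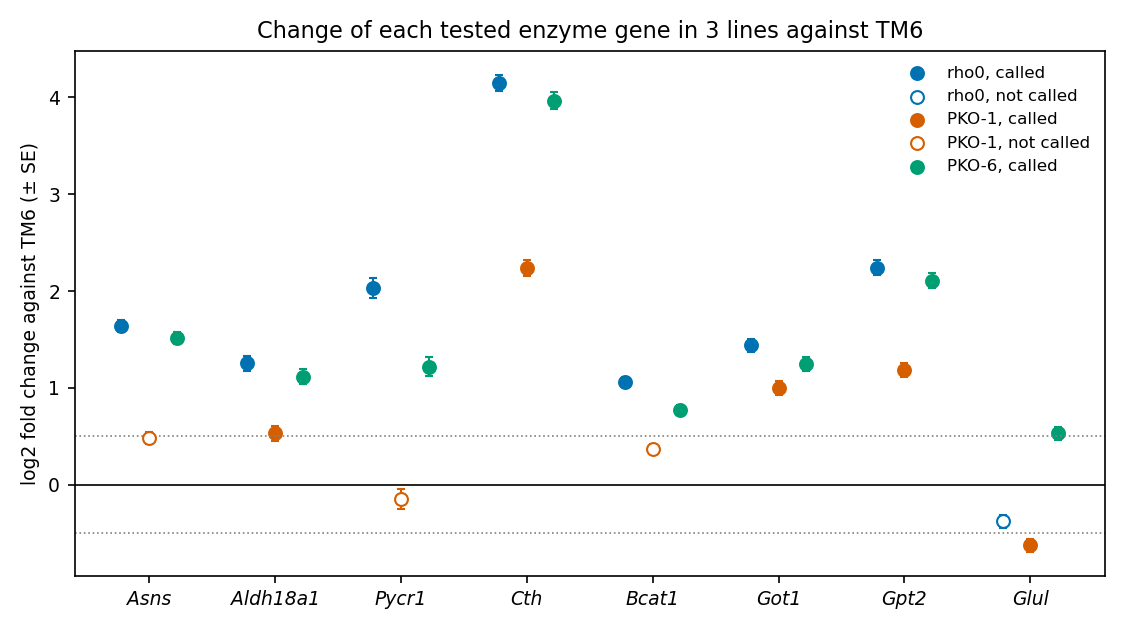
Log2 fold change against TM6 (± SE, edgeR) of the 8 tested enzymes in rho0, PKO-1 and PKO-6, with filled points for called genes, open points for the others and dotted lines at the thresholds of 0.5 and -0.5. *Cth* is highest in each line (4.15, 2.24 and 3.97), and PKO-1 lies below rho0 and PKO-6 in all 8.

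The order of the line means was rho0, PKO-6, PKO-1 and TM6 from high to low for *Asns*, *Aldh18a1*, *Cth*, *Bcat1*, *Got1* and *Gpt2*. This order held for 6 of the 8 tested enzymes and for 7.96% of all tested genes. It was read from these enzymes and not set beforehand, so the comparison is a description and no test. For *Pycr1* the order was rho0, PKO-6, TM6 and PKO-1, and for *Glul* PKO-6, TM6, rho0 and PKO-1. Among neighbours in the order, rho0 and PKO-6 did not differ by a call in the 6 genes, while PKO-6 was above PKO-1 by a call in *Asns*, *Aldh18a1*, *Cth* and *Gpt2*. PKO-1 was above TM6 by a call in *Aldh18a1*, *Cth*, *Got1* and *Gpt2*. For *Bcat1* no pair of neighbours differed by a call although the ends of its order did.

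The clones were compared directly because they carry the same *Pnpt1* treatment. PKO-1 was lower than PKO-6 in 6 of the 8 tested enzymes and higher in 0, where 17.6% of all tested genes were called lower and 11.5% higher. *Cth* was 3.31-fold lower in PKO-1 (log2 difference -1.73, SE 0.076, adjusted p = 3.41e-10, edgeR), *Pycr1* 2.58-fold lower (-1.37) and *Glul* 2.23-fold lower (-1.16, SE 0.067). *Asns* was 2.04-fold lower (-1.03, SE 0.063), *Gpt2* 1.89-fold (-0.92, SE 0.074) and *Aldh18a1* differed by -0.58 (SE 0.075). *Bcat1* (-0.41) and *Got1* (-0.25) were not called, although in neither did the clones' libraries overlap. In all 8 the PKO-1 libraries lay below the PKO-6 libraries, as in 33.5% of all tested genes. The median over the 8 was -0.97, and over all tested genes -0.01.

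Set against rho0, PKO-1 was lower in 6 of the 8 and higher in 0, where 17.6% of all genes were called lower and 15.1% higher. These were *Pycr1* (-2.18), *Cth* (-1.91), *Asns* (-1.16), *Gpt2* (-1.06), *Aldh18a1* (-0.72) and *Bcat1* (-0.69), while *Got1* (-0.44) and *Glul* (-0.25) were not called. Without rho0 replicate 2, *Got1* was called as well (-0.50). PKO-6 differed from rho0 by a call only in *Glul*, which was higher (0.91), and *Pycr1*, which was lower (-0.81), so 1 of the 8 was higher and 1 lower, against 13.3% and 8.16% of all genes. In the other 6 the log2 differences between PKO-6 and rho0 were -0.29 to -0.13.

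As a share of the log2 change in rho0, the change in PKO-6 was 95.6% for *Cth*, 94.0% for *Gpt2*, 92.1% for *Asns*, 88.9% for *Aldh18a1*, 86.8% for *Got1*, 73.1% for *Bcat1* and 60.0% for *Pycr1*. In PKO-1 the share was 69.5% for *Got1*, 54.0% for *Cth*, 52.9% for *Gpt2*, 42.4% for *Aldh18a1*, 34.6% for *Bcat1*, 29.5% for *Asns* and -7.31% for *Pycr1*. Over these 7 enzymes, all called higher in rho0, the shares ran over a wider range in PKO-1 than in PKO-6. *Glul*, which was not called in rho0 (-0.38), had shares of 166% in PKO-1 and -141% in PKO-6, and with it this does not hold. All shares use the same rho0 and TM6 libraries and are given as a description.

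Among the 3 genes with the C/EBP-ATF core printed above, *Got1* rose in all 3 lines, while *Asns* and *Pycr1* were called in rho0 and PKO-6 and not in PKO-1. *Bcat1*, *Gpt2* and *Glul*, without either motif in their windows, included the second largest change in rho0 (*Gpt2*).

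Both clones together were also compared with TM6, as the study did, in a fit of 3 groups in which the gap between the clones counts as spread. In it 6 of the 8 were called higher and 0 lower, against 13.5% and 12.2% of all tested genes. *Cth* rose by 3.35 (SE 0.525, adjusted p = 0.000289, edgeR), *Gpt2* by 1.72 (SE 0.266), *Got1* by 1.13 (SE 0.097), *Asns* by 1.09 (SE 0.281, adjusted p = 0.00734, edgeR), *Aldh18a1* by 0.85 (SE 0.171) and *Bcat1* by 0.59 (SE 0.118) on the log2 scale. *Pycr1* (0.69, SE 0.367, adjusted p = 0.14, edgeR) and *Glul* (0.07, SE 0.299, adjusted p = 0.873) were not called, and in these the 6 PKO libraries overlapped those of TM6. The 6 PKO libraries come from 2 clones but were entered as 6 replicates without a term for the clone. The p-values of this fit thus overstate what 2 clones can show. The SE of *Cth* was 0.525 here against 0.082 and 0.086 for the single clones. The *Asns* call was lost with TM6 and the clones fitted alone (adjusted p = 0.0188) and without any 1 TM6, rho0 or PKO-6 library (adjusted p 0.0128 to 0.0352), that of *Aldh18a1* without TM6 replicate 3 (adjusted p = 0.0101) and that of *Bcat1* without TM6 replicate 1 (adjusted p = 0.011), all by edgeR.

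The ATF4 axis, a list of 9 transcription factors and targets apart from the enzymes, was followed beside them. All 9 were called higher in rho0, 4 were higher and 1 lower in PKO-1, and 8 were higher in PKO-6. The shares of all tested genes were 20.7% higher and 21.4% lower in rho0, 16.4% and 17.9% in PKO-1, and 21.9% and 19.4% in PKO-6. *Atf4* itself had 15274 ± 96.0 normalized counts in TM6, 30936 ± 2735 in rho0, 16200 ± 864 in PKO-1 and 34569 ± 1313 in PKO-6. It rose in rho0 (log2 fold change 1.02) and PKO-6 (1.18) and was not called in PKO-1 (0.08, adjusted p = 0.283, edgeR), where the median of its chromosome was -0.23. With that median taken out the PKO-1 value was 0.31 (adjusted p = 0.000274, edgeR), still under the fold threshold. *Ddit3*, a transcription factor of stress responses, had 2.18 in rho0, 0.13 in PKO-1 and 2.17 in PKO-6, and *Atf3*, another, had 2.11, -0.10 and 1.60, neither called in PKO-1. *Trib3*, a pseudokinase, rose in all 3 lines (3.77, 1.52 and 3.46), as did *Sesn2*, an inhibitor of mTORC1 signalling (2.69, 1.38 and 2.79), *Chac1*, which degrades glutathione (1.98, 0.71 and 2.59), and the transcription factor *Atf5* (1.18, 0.87 and 1.67). *Cebpb* rose in rho0 (0.79) and PKO-6 (0.89), and *Nupr1* rose in rho0 (0.67) and fell in PKO-1 (-0.64), both named after their values were seen.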

How the data were processed

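The 12 RNA-seq libraries of 4 MEF lines (3 per line) were re-analysed. The authors depleted rRNA, prepared strand-specific libraries in technical duplicates (2 per sample), merged their reads, and estimated expression with RSEM 1.2.25 and bowtie2 on RefSeq transcripts of mm10 (GRCm38). The deposited values are expected counts per gene and per transcript, not normalized, and TPM per transcript, which the authors' RSEM run scaled within each library. TPM were summed per gene and counts were rounded to whole numbers. In R 4.3.3 with edgeR 4.0.16, filterByExpr (minimum count 10) kept 14026 genes. After TMM scaling, the quasi-likelihood test with Benjamini-Hochberg adjustment compared the 6 pairs of 4 lines and, in a fit of 3 groups, both clones with TM6. The test was tried on simulated data. The 9 genes, the pathway lists and the tests were chosen with earlier results of these data known. Pathway genes were named where called in 1 direction in all 3 lines, with up to 3 others a list of largest change among called genes whose mean was 100 normalized counts or more. The result of 1 listed gene is withheld and not reported here. Likeness was Pearson's r of log2 CPM. The alternatives were DESeq2 1.42.0 size factors and Wald test, library totals, no filter, a replicate block, the compared lines alone, other thresholds, TPM in place of normalized counts, each library left out, and, added after the data were seen, chromosome medians removed. Counting error alone is small at 47164860 counts or more per library, except for *Cbs* and pathway genes of low counts such as *Arg1*, *Arg2*, *Aspg* and *Gfpt2*.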

Additional observations from a re-analysis of the deposited data

Results flagged for a closer look

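The change against TM6 differed between the PKO clones in 6 of the 8 tested enzymes, by edgeR's quasi-likelihood test of PKO-1 against PKO-6. All 6 were lower in PKO-1, where 17.6% of all tested genes were called lower and 11.5% higher. The change in PKO-1 minus that in PKO-6, on the log2 scale, was -1.73 for *Cth*, -1.37 for *Pycr1*, -1.16 for *Glul*, -1.03 for *Asns*, -0.92 for *Gpt2* and -0.58 for *Aldh18a1*. In each of the 6, all 3 PKO-1 libraries lay below all 3 PKO-6 libraries, as 33.5% of all tested genes did. *Glul* is the one of the 6 that was called in opposite directions against TM6. Each clone is 1 single-cell colony, so the clone and anything else that differed between the colonies cannot be told apart.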

How the results depend on the processing

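The counts of called enzymes held within 1.5 times in every alternative except where thresholds changed. With an adjusted p below 0.01 alone, 1 enzyme was lower in rho0 (*Glul*) and 2 were lower in PKO-6 against rho0. With an absolute log2 fold change above 1, 0 were lower in PKO-1, and 0 were higher and 0 lower in PKO-6 against rho0. Leaving out 1 library gave 3 to 5 enzymes higher in PKO-1, 7 to 8 in PKO-6, 6 to 7 lower in PKO-1 against rho0 and 4 to 6 higher in both clones together. In TPM, ratios to TM6 moved by more than the spread of replicates for PKO-1 in *Asns* (1.34), *Aldh18a1* (1.38), *Bcat1* (1.23), *Got1* (1.91), *Gpt2* (2.17) and *Glul* (0.619), and for PKO-6 in *Asns* (2.75), *Cth* (15.04), *Bcat1* (1.65) and *Glul* (1.39), each on the same side of 1. The overlap of rho0 and PKO-6 libraries in normalized counts was not seen in TPM. The TPM ranges were 338 to 347 against 302 to 320 for *Asns* and 196 to 205 against 174 to 182 for *Aldh18a1*. For *Gpt2* they were 76.0 to 78.9 against 67.6 to 70.45.

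With chromosome medians removed, signs turned for *Gpt2* in PKO-6 against rho0 (0.10), *Glul* in both clones against TM6 (-0.12), *Gfpt1* in rho0 (-0.045), and *Odc1* (-0.31), *Mtr* (0.043), *Mtrr* (0.068) and *Bckdhb* (0.044) in PKO-1, none of them called before. Over the libraries left out, *Glul* in both clones ran from -0.069 to 0.181 and *Ivd* in PKO-6 from -0.092 to 0.086, and *Ivd* was -0.014 with the compared lines alone. The removal of chromosome medians took away the calls of *Aldh18a1* in PKO-1 (0.50), *Glul* in PKO-6 (0.33), *Odc1* in rho0 (0.29) and PKO-6 (0.02), *Tst* in rho0 (-0.14), *Mccc2* in PKO-1 (-0.24), *Got2* in PKO-6 (-0.12), *Bckdhb* in PKO-6 (-0.48), *Pycrl* in rho0 (-0.40) and *Asns* (0.96) and *Bcat1* (0.45) in both clones, and added *Bcat1* in PKO-1 against PKO-6 (-0.54). Scaling by library totals took away *Got2* (-0.50) and *Bckdhb* (-0.45) in PKO-6 and added *Asns* and *Mccc1* in PKO-1 (0.50 each). The cause was not tested.

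A replicate block left 7 enzymes higher in rho0, 4 in PKO-1 and 8 in PKO-6, and 5 in place of 6 in both clones, where *Asns* was lost (adjusted p = 0.0189, edgeR), as it was with the compared lines alone (adjusted p = 0.0188, edgeR). Of 18 pairs of same-numbered libraries, 10 had deviations that correlated over 0.1, with a range of -0.39 to 0.25, so the numbers were not taken as a pairing over the 4 lines. Between TM6 and PKO-6 all 3 same-numbered pairs did (0.250, 0.250 and 0.209), and no other pair between these lines did. Differently numbered libraries of other lines reached higher values, such as 0.490 for rho0 replicate 1 with PKO-6 replicate 2. No pairing is read from these values, and the labels state none. The block kept all 8 enzymes called higher in PKO-6.

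The lines are single clones or cultures, and RNA was extracted with either of 2 kits, with no record by library. The part of either in these results was not tested. Depth did not limit the 8 tested enzymes but left *Cbs* at 0 to 11 counts.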

Other observations

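For each enzyme, the genes most like it were sought by Pearson's r of log2 CPM over the 12 libraries, among 11205 tested genes whose mean was 100 normalized counts or more. The libraries fall into 4 lines, so high values mainly describe the order of line means, and no test is given. *Bcat1* was most like the cytosolic tRNA synthetase genes *Lars* (r = 0.998), *Gars* (0.996) and *Wars* (0.996) and the mitochondrial folate enzyme *Mthfd2* (0.997). *Asns* was most like *Cars* (0.997), another tRNA synthetase, and *Aldh18a1* most like *Pck2* (0.996), the mitochondrial enzyme that makes phosphoenolpyruvate from oxaloacetate. Almost as close were *Acot2* (0.996) to *Asns*, and *Iah1* (0.996) and *Dym* (0.996) to *Aldh18a1*, so no shared function is read from these genes.

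*Cth* and *Gpt2* were each among the other's closest genes (r = 0.998), and *Adh7*, an alcohol dehydrogenase, was close to both (0.998 and 0.996). *Got1* was closest to *Commd10* (0.996). *Pycr1* was closest to *Ascc2* (0.989) and *Herpud1* (0.989), and its r with the other enzymes ran from 0.220 with *Glul* to 0.924 with *Bcat1*. *Glul* was closest to *Syde2* (0.993), and its r with the 7 other tested enzymes was -0.06 to 0.261.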
